A study of Mus musculus with 12 samples.

Results

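The genes described here encode the receptors for glutamate and the proteins that hold them in place at the excitatory synapse. They were taken by gene symbol from the table of read counts per gene, with no use of their measured values, and all 34 listed symbols were found among the 24062 rows of the table. They comprise 4 AMPA receptor subunits (Gria1 to Gria4), 5 kainate receptor subunits (Grik1 to Grik5), 6 NMDA receptor subunits (Grin1, Grin2a to Grin2d and Grin3a), the delta receptor Grid1, 6 metabotropic receptors (Grm2 to Grm5, Grm7 and Grm8), 4 membrane-associated guanylate kinase scaffolds (Dlg1 to Dlg4), Shank1 to Shank3, Homer2 and Homer3, the kinase subunits Camk2a and Camk2b, and the adhesion protein Nlgn1. Their loci lie on 16 chromosomes, and Gria3 and Dlg3 are X-linked.

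At an excitatory synapse, glutamate released from the axon opens AMPA receptors, which carry most of the fast current, and NMDA receptors, which admit calcium when the postsynaptic membrane is depolarised. Calcium activates CaMKII, a kinase whose activity changes the number and conductance of AMPA receptors. Metabotropic receptors signal through G proteins and tune release and excitability, and the scaffold proteins of the postsynaptic density link the receptors to each other, to the actin cytoskeleton and to signalling enzymes. Tau that has left the axon is known to enter this compartment in tauopathy.

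RNA was sequenced from the cortex of mice of 9 months in 4 groups of 3 libraries. WT mice carried neither the transgene nor the Tia1 mutation, Tia1+/- mice had lost 1 allele of Tia1, the gene of an RNA binding protein of stress granules, PS19 mice carried a human MAPT transgene with the P301S mutation driven by the mouse Prnp promoter and both alleles of Tia1, and P301S Tia1+/- mice carried the transgene with 1 allele of Tia1. The groups are those of the sample titles, since the genotype field gives each library titled Tia1+/- the double genotype and each library titled P301S Tia1+/- the single one, and which field is right was not settled. The comparisons ask what the tau transgene does on either Tia1 background, what loss of 1 Tia1 allele does with and without it, and whether the 2 effects depend on each other.

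Read totals per library spanned 11978962 to 19146484. Tia1 itself, the gene mutated in 2 of the groups, stood at 82.0 ± 10.3 counts per 1000000 (CPM; SD, n = 3) in WT, 73.5 ± 3.87 in PS19, 68.0 ± 10.3 in Tia1+/- and 74.7 ± 2.76 in P301S Tia1+/- mice, so that its RNA did not separate the groups. Prnp, whose promoter drives the transgene, was at 1334 to 1879 CPM in WT, 2018 to 2158 in PS19, 996 to 1922 in Tia1+/- and 1404 to 1535 CPM in P301S Tia1+/- mice, and Mapt at 256 to 413, 439 to 462, 344 to 502 and 336 to 357 CPM. Only PS19 lay above all WT libraries in both genes, and whether reads of the human transgene were counted under either mouse gene is not known. Xist had 3304 to 5693 counts in the Tia1+/- and P301S Tia1+/- libraries and 0 to 13 in the WT and PS19 libraries, while the Y-linked genes Ddx3y and Uty had at most 3 counts in the former and at least 687 in the latter. The methods state that male mice were used unless otherwise noted, which these counts go against for the 6 libraries with Xist. Sex and Tia1 genotype cannot be told apart in any comparison of a Tia1+/- group with a Tia1+/+ group. The methods give 3 samples per genotype and no further account of the animals, and the p-values below measure only the spread between these libraries.

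Markers of neighbouring brain regions moved with several of the results. The summed level of 9 olfactory bulb genes found of 10 listed was 1458, 218 and 52.4 CPM in WT replicates 1 to 3, 16.9 to 29.8 CPM in PS19, 17.3 to 212 CPM in Tia1+/- and 940 to 1080 CPM in P301S Tia1+/- mice. None of the 9 was at 0 in every library, and all 9 were higher in P301S Tia1+/- than in PS19 mice. The summed level of 6 striatal genes found of 7 listed was 1449 CPM in Tia1+/- replicate 3 and 92.4 to 288 CPM in the other 11 libraries. The 7 cortical neuron genes were detected in all libraries, with summed levels of 3628 CPM in Tia1+/- replicate 3, 4362 CPM in WT replicate 1 and up to 7247 CPM elsewhere, so the cortical label held with these differences between libraries.

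**Figure D1:**
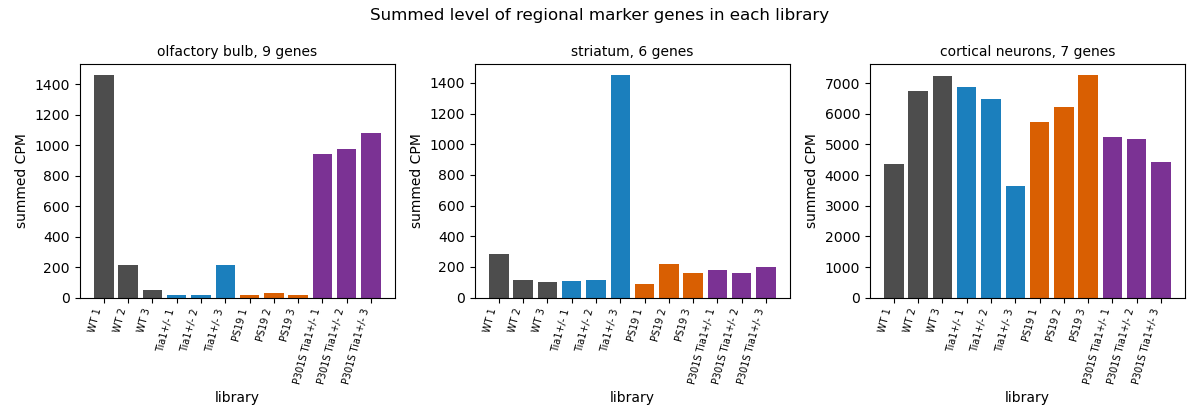
Bars give the summed CPM of the genes of 3 regional marker lists (olfactory bulb, striatum, cortical neurons; y axis, linear from 0) in each of the 12 libraries (x axis, coloured by group). The bulb list reached 940 to 1080 CPM in the P301S Tia1+/- libraries and 1458 CPM in WT replicate 1, and the striatal list 1449 CPM in Tia1+/- replicate 3.

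WT replicate 1 was the library farthest from the mean of its group for 25 of the 34 synaptic genes, against 58.6% of the 15440 genes tested. Tia1+/- replicate 3 was the farthest for 19 of the 34, a share below the 59.0% of all genes. In WT replicate 1, 29 of the 34 genes lay outside the values of the other WT libraries, and 28 of these 29, or 96.6%, deviated toward the side on which P301S Tia1+/- differed from PS19 mice. The same held for 75.5% of all such genes. The part of the bulb and striatal signals in the levels below was not tested beyond the fits given with each result. In fits with the summed bulb level as a covariate, its slope rests on the spread within groups, which was widest in WT. The bulb sums of P301S Tia1+/- mice did not overlap those of PS19 or Tia1+/- mice, nor did those of WT overlap PS19. For these comparisons the fit cannot fully separate bulb level from group, and its values are not effects freed of bulb signal.

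All 34 genes were detected in every library, at 29 to 22304 counts, and all passed the filter on low counts. After scaling between libraries, they summed to 6192 CPM in WT replicate 1, the lowest, and to 8086 CPM in PS19 replicate 2, the highest. Expressed per length, as CPM per kb of merged exons, their mean levels over the 12 libraries spanned 160-fold. Camk2a, the alpha subunit of the kinase of forebrain excitatory neurons, stood highest at 104.5 CPM per kb. Gria1 and Gria2, the main AMPA receptor subunits of cortical pyramidal cells, followed at 75.9 and 71.6, Camk2b at 70.5, and the presynaptic and glial receptor gene Grm3 at 58.3. Next in this order came Dlg3 at 35.4, Grm5 at 35.3 and Dlg1 at 33.1 CPM per kb, all below the lowest library of Gria1, at 57.1. At the other end were Grin2d at 0.652, Homer3 at 1.02 and Grik4 at 2.37 CPM per kb.

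**Figure D2:**
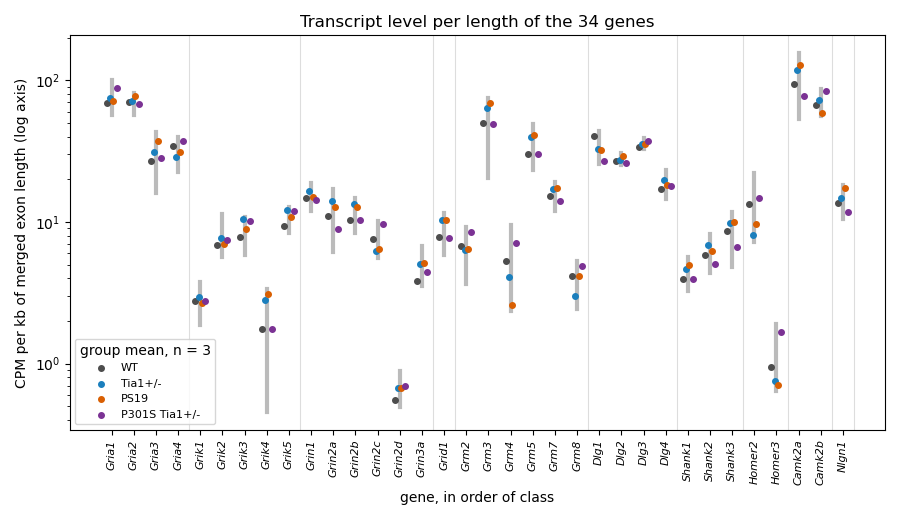
Points give the mean CPM per kb of merged exon length (y axis, log scale) of the 3 libraries of each group for the 34 genes (x axis, in order of class), and grey bars span the lowest to the highest of the 12 libraries. Levels ran from 0.652 for Grin2d to 104.5 for Camk2a as means over all libraries, a wider range than between the groups of any single gene.

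No gene of the 34 had an adjusted p under 0.05 in any comparison by edgeR's quasi-likelihood test with Benjamini-Hochberg adjustment over all genes tested. Among all 15440 genes, 0.0% passed this threshold between PS19 and WT mice, 0.24% between P301S Tia1+/- and PS19, 0.712% between Tia1+/- and WT, 0.0% between P301S Tia1+/- and Tia1+/-, and 0.00648% for the interaction, which asks whether the effect of Tia1+/- differs with the transgene. The smallest adjusted p of a synaptic gene was 0.159, 0.0691, 0.088, 0.175 and 0.0684 in the same order. DESeq2's Wald test called 1 of the 34 genes between PS19 and WT mice, where it called 2.77% of all genes, 6 between P301S Tia1+/- and PS19 (5.28%), 2 between Tia1+/- and WT (6.59%), 4 between P301S Tia1+/- and Tia1+/- (2.53%) and 7 for the interaction (7.63%). As the tissue is a mixture of cells, fewer neurons and less RNA per neuron cannot be told apart in any of these values.

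Between PS19 and WT mice, which differ in the tau transgene, 5 of the 34 genes had an unadjusted p under 0.05, against 16.3% of all genes. Of these, 3 (Grid1, Grm5 and Nlgn1) were higher in PS19, as were 6.56% of all genes, and 2 (Dlg1 and Grm4) were lower, as were 9.73%. In 8 genes the 3 PS19 libraries did not overlap the 3 WT libraries, where 20.8% of all genes did not overlap. PS19 was higher in 7 of them (9.75% of all genes) and lower in 1 (11.0%). The median log2 difference was 0.13 over the 34 genes and -0.01 over all genes, and 24 of the 34 had a positive difference, as had 49.0% of all genes. With the summed bulb level as a covariate 2 genes, Gria1 and Grik2, were called, where 3.42% of all genes were. Leaving out each library in turn gave no call.

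Between P301S Tia1+/- and PS19 mice, which differ in Tia1 genotype with tau present, 12 of the 34 genes, or 35.3%, had an unadjusted p under 0.05, against 19.3% of all genes. P301S Tia1+/- mice were higher in 4 of them (Grin2c, Grm4, Homer3 and Camk2b; 11.7% of all genes) and lower in 8 (Grid1, Grm5, Grm7, Dlg1, Dlg2, Shank3, Camk2a and Nlgn1; 7.62% of all genes). The groups did not overlap in 25 genes, against 38.5% of all genes, 10 of them higher (20.2% of all genes) and 15 lower (18.2%). The median log2 difference was -0.12 over the 34 genes and 0.01 over all genes, and 15 of the 34 had a positive difference, as had 51.5% of all genes. With the bulb level as a covariate the median was 0.03 and 1 gene, Grik2, was called, where 4.78% of all genes were. The bulb sums of the groups did not overlap, so this fit cannot fully separate bulb level from group. Without WT replicate 1, which is in neither group and enters this comparison through the filter, the scaling and the shared estimate of the spread, 13 of the 34 genes were called, against 10.3% of all genes, and without WT replicate 3 only Homer3 was called, against 0.439%. With only these 2 groups in the fit, 17 genes were called, 6 higher and 11 lower, against 20.1% of all genes.

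In the comparison of Tia1+/- with WT libraries, without the transgene in either, 8 of the 34 genes had an unadjusted p under 0.05, against 19.1% of all genes. Tia1+/- was higher in 5 of them (Grik3, Grik5, Grin2b, Grid1 and Grm5; 8.63% of all genes) and lower in 3 (Grm8, Dlg1 and Homer2; 10.5% of all genes). The libraries did not overlap in 5 genes, against 20.0% of all genes, 4 of them higher (9.6%) and 1 lower (10.4%). The median log2 difference was 0.18 over the 34 genes and 0.01 over all genes, and 26 of the 34 had a positive difference, as had 50.7% of all genes. The median was 0.11 without WT replicate 1 and 0.05 with the bulb level as a covariate, under which 4 genes (Gria1, Grik2, Grik3 and Camk2b) were called, where 7.29% of all genes were. Without WT replicate 3, Dlg1 was called, against 3.16% of all genes.

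Between P301S Tia1+/- and Tia1+/- mice, which differ in the transgene with 1 allele of Tia1, 13 of the 34 genes, or 38.2%, had an unadjusted p under 0.05, against 15.6% of all genes. P301S Tia1+/- mice were higher in 5 of them (Gria4, Grin2c, Grm8, Homer2 and Homer3; 8.92% of all genes) and lower in 8 (Grin2b, Grid1, Grm5, Grm7, Dlg1, Shank2, Shank3 and Nlgn1; 6.66% of all genes). The libraries did not overlap in 17 genes, against 26.0% of all genes, 6 of them higher (14.9%) and 11 lower (11.1%). The median log2 difference was -0.11 over the 34 genes and 0.01 over all genes, and 11 of the 34 had a positive difference, as had 51.1% of all genes. Without WT replicate 1, 10 genes were called, against 6.11% of all genes. With only these 2 groups in the fit 4 were called, against 2.22%, and with the bulb level as a covariate the median was -0.0238 and Grik2 was called, against 5.9%.

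For the interaction, 18 of the 34 genes had an unadjusted p under 0.05, against 22.9% of all genes, 7 with a positive term (13.6% of all genes) and 11 with a negative one (9.28%). The median term was -0.23 over the 34 genes and 0.00489 over all genes, and 10 of the 34 were positive, as were 50.5% of all genes. With the bulb level as a covariate the median term of the 34 genes was -0.0284. The interaction was called for 7 of the 34 without WT replicate 3, against 6.57% of all genes, for Nlgn1 without WT replicate 1 (1.55% of all genes), for Grin2c without Tia1+/- replicate 3 (2.6%), and for Gria1 and Grik2 with the bulb level as a covariate (6.08%). When WT replicate 1 and Tia1+/- replicate 3 were both left out, a choice made after the data were seen, 13 of the 34 genes were called for the interaction (13.5% of all genes), 18 between P301S Tia1+/- and PS19 (22.9%) and 21 between P301S Tia1+/- and Tia1+/- mice (23.4%). The 4 group comparisons share libraries, so that the values of 1 group enter 2 of them.

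**Figure D3:**
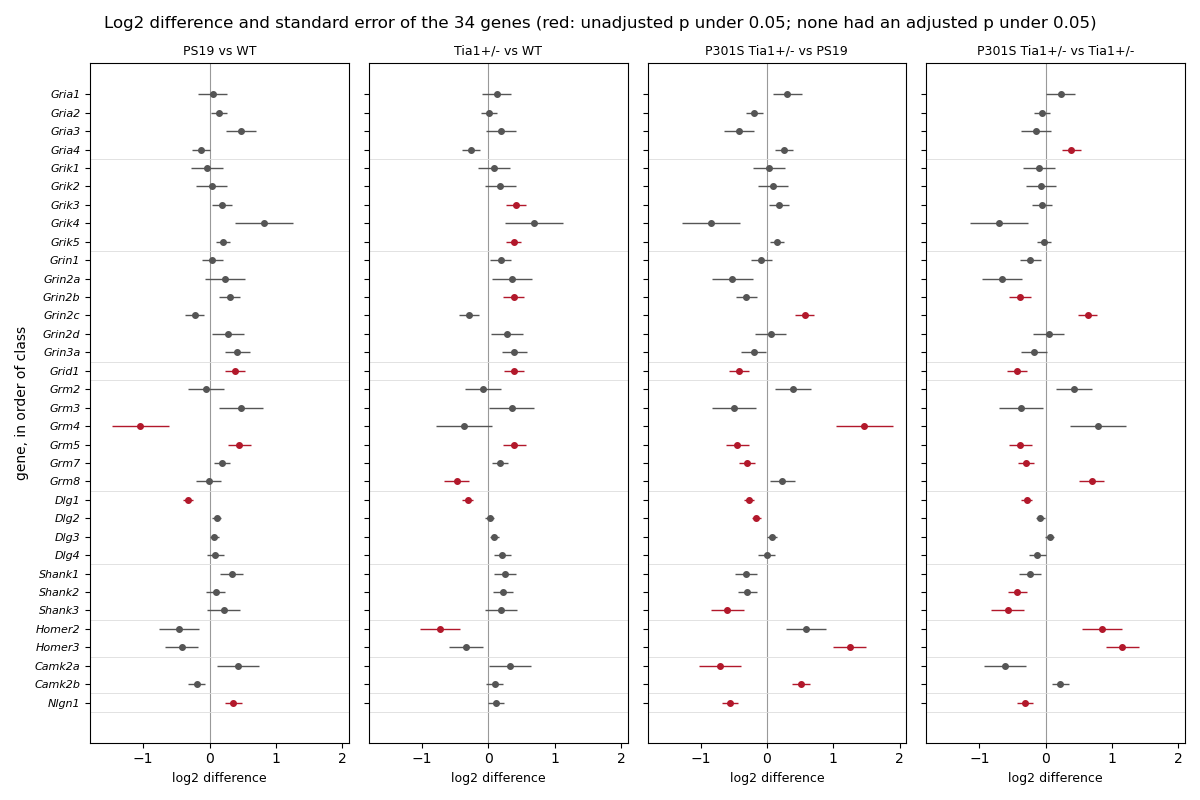
Points give the log2 difference (x axis) of each of the 34 genes (y axis, in order of class) in the 4 comparisons of groups, with bars of 1 standard error from edgeR, n = 3 libraries per group. Red marks an unadjusted p under 0.05, reached by 5, 8, 12 and 13 genes from the left panel to the right, and no gene had an adjusted p under 0.05.

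Set out by library, 3 of the 34 genes had every library of WT or of P301S Tia1+/- outside the range of all 9 others. Dlg1 was above in WT, as were 3.34% of all genes, and none of the 34 was below (2.4%). Homer3 was above in P301S Tia1+/-, as were 2.47%. Dlg1 and Dlg2 were below in P301S Tia1+/-, as were 1.86%.

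**Figure D4:**
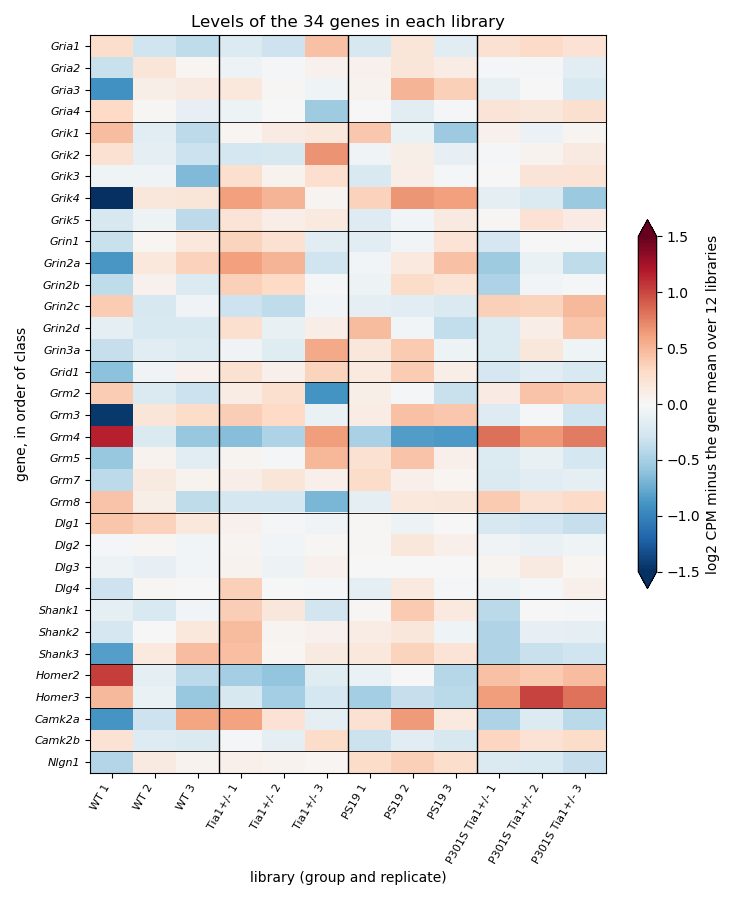
Colours give the log2 CPM of each of the 34 genes (rows, in order of class) in each of the 12 libraries (columns) after subtraction of the gene's mean over all libraries, from -1.5 (blue) to 1.5 (red). Grm4, Homer2 and Homer3 are high in WT replicate 1 and in the 3 P301S Tia1+/- libraries, and Grik4 and Grm3 have their lowest values in WT replicate 1.

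Of the AMPA receptor subunits, Gria2 (chr3:80681450-80802835; GRCm38, GENCODE gene coordinates as for all genes below) encodes the subunit that makes the channel impermeable to calcium. Its levels were 877, 1260 and 1129 CPM in WT replicates 1 to 3, 1159, 1262 and 1194 in PS19, 1053, 1098 and 1155 in Tia1+/-, and 1092, 1091 and 991 CPM in P301S Tia1+/- mice. P301S Tia1+/- mice thus lay below PS19, with a log2 difference of -0.19 (SE 0.121, adjusted p = 0.409 by edgeR), and PS19 overlapped WT. The difference from PS19 was -0.02 with the bulb level as a covariate and -0.08 with GC and length offsets. The sign of the difference between Tia1+/- and WT mice, 0.02 on the log2 scale, turned to -0.10 without WT replicate 1.

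Gria1 (chr11:57011387-57330244), whose subunit is inserted during synaptic potentiation, stood at 541, 366 and 345 CPM in WT, 382, 511 and 399 in PS19, 391, 362 and 612 in Tia1+/-, and 526, 548 and 524 CPM in P301S Tia1+/- mice. The P301S Tia1+/- libraries were all above PS19, by 0.31 on the log2 scale (SE 0.217, adjusted p = 0.448 by edgeR), and the highest value of all was that of Tia1+/- replicate 3, the library with striatal markers. Gria3 and Gria4 had mean levels of 266 to 370 and 180 to 236 CPM over the groups. Gria4 was higher in P301S Tia1+/- than in Tia1+/- mice without overlap, by 0.39 (adjusted p = 0.248 by edgeR).

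The 5 kainate receptor subunits summed to 199.5 to 345 CPM per library, against 542 to 948 CPM for the NMDA and 1828 to 2379 CPM for the AMPA receptor subunits. Grik5 (chr7:25009849-25072346) encodes a high-affinity subunit that forms channels only together with the Grik1 to Grik3 products. It was at 48.2, 54.2 and 43.5 CPM in WT and at 65.4, 61.1 and 63.3 CPM in Tia1+/- mice, without overlap, a log2 difference of 0.38 (SE 0.106, adjusted p = 0.0988 by edgeR). PS19 libraries held 49.9, 55.2 and 62.8 CPM and P301S Tia1+/- libraries 57.9, 66.1 and 62.3 CPM, and these groups overlapped each other. DESeq2 called Grik5 between Tia1+/- and WT mice, and with GC and length offsets its difference in edgeR was 0.23 (adjusted p = 0.343).

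Grik3 (chr4:125490700-125714173) was at 79.1, 79.5 and 52.2 CPM in WT, 70.5, 88.5 and 81.0 in PS19, 97.6, 85.6 and 97.9 in Tia1+/-, and 82.2, 94.5 and 94.9 CPM in P301S Tia1+/- mice. All 3 Tia1+/- libraries were above WT, by 0.41 on the log2 scale (SE 0.153, adjusted p = 0.177 by edgeR). Without WT replicate 3 this difference was 0.25, and with the bulb level as a covariate 0.64 (adjusted p = 0.0325). The other 3 kainate genes had group means of 10.4 to 103 CPM and adjusted p-values from 0.178 upward in all comparisons. Among them Grik4 stood out for a single library, with 2.72 CPM, from 34 counts, in WT replicate 1 and 14.4 CPM in both other WT libraries.

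Of the NMDA receptor subunits, Grin1 (chr2:25291181-25319187) encodes the subunit present in every NMDA receptor. Its 12 values overlapped between all groups. They were 116, 148 and 162 CPM in WT, 129, 141 and 168 in PS19, 183, 170 and 131 in Tia1+/-, and 122, 146 and 145 in P301S Tia1+/- mice. Its largest log2 difference, between P301S Tia1+/- and Tia1+/- mice, was -0.23 (SE 0.16, adjusted p = 0.505 by edgeR).

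Grin2c (chr11:115249169-115267243), a subunit most abundant in the cerebellum and also found in the olfactory bulb and in astrocytes, was the NMDA subunit with the smallest adjusted p. It was at 47.9, 31.2 and 35.4 CPM in WT, 33.2, 33.1 and 31.7 in PS19, 29.7, 28.2 and 35.7 in Tia1+/-, and 47.4, 46.6 and 51.5 CPM in P301S Tia1+/- mice. The P301S Tia1+/- libraries lay above all PS19 and Tia1+/- libraries, and only WT replicate 1 reached them. The log2 difference from PS19 was 0.57 (SE 0.145, adjusted p = 0.105 by edgeR), that from Tia1+/- 0.63 (adjusted p = 0.178), and the interaction 0.86 (adjusted p = 0.0694). With the bulb level as a covariate the difference from PS19 was 0.06 and the interaction 0.10.

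None of the other Grin genes had P301S Tia1+/- libraries outside the range of both PS19 and Tia1+/- mice. Grin2a and Grin2b, the subunits of mature and of juvenile cortical receptors, had group means of 160 to 252 and 256 to 334 CPM, with P301S Tia1+/- mice lowest for Grin2a and level with WT for Grin2b. Grin2b was lower in P301S Tia1+/- than in Tia1+/- mice without overlap, by -0.39 on the log2 scale (adjusted p = 0.285 by edgeR). Grin2d and Grin3a, of interneurons and of juvenile synapses, had group means of 3.71 to 4.66 and 47.2 to 63.0 CPM.

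The windows of 250 bases before the annotated start are shown for Grin2c and Dlg1, the receptor subunit that was higher and the scaffold that was lower in P301S Tia1+/- than in PS19 mice, because both genes start at the same base in RefSeq and GENCODE. Sequences are from RefSeq (GRCm38.p6), written 5′ to 3′ on the strand of the gene, with each GC box letter match (GGGCGG or its reverse complement CCGCCC, overlapping matches included) in capitals.
Grin2c: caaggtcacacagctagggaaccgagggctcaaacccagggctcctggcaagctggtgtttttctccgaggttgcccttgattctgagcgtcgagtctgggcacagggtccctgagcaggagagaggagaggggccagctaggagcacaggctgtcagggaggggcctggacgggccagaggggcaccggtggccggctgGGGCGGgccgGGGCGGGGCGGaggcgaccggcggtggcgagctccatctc
Dlg1: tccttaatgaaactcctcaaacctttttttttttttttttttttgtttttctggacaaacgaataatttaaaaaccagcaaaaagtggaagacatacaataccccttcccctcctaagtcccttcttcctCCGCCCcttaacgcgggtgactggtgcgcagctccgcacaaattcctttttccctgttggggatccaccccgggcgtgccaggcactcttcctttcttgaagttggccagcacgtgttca
The Grin2c window (chr11:115267244-115267493, minus strand) held 3 matches, the last 2 sharing 1 base, and had a GC content of 68.8%. The Dlg1 window (chr16:31663193-31663442, plus strand), before the most upstream of 4 listed starts, held 1 match and had a GC content of 46.0%. A match was found in 32.7% of the 32851 windows of this length in the annotation, and in 48.6% of the 35 windows of the 22 synaptic genes that have one. A letter match is a description of the sequence and not evidence of a bound site.

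Grid1 (chr14:34820108-35583379), the delta receptor that binds the synaptic organisers cerebellins rather than opening with glutamate, was at 34.7, 50.9 and 55.4 CPM in WT, 58.6, 68.8 and 56.5 in PS19, 62.3, 55.7 and 67.0 in Tia1+/-, and 44.6, 47.0 and 45.3 CPM in P301S Tia1+/- mice. Both single-mutant groups were thus above WT and above P301S Tia1+/- mice without overlap. The log2 differences were 0.38 (SE 0.153, adjusted p = 0.263 by edgeR) between PS19 and WT and 0.39 (adjusted p = 0.197) between Tia1+/- and WT, and 0.21 and 0.23 without WT replicate 1. The interaction was -0.82 (SE 0.216, adjusted p = 0.0808), and -0.45 with the bulb level as a covariate.

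Of the metabotropic receptors, Grm5 (chr7:87584168-88134907) couples to phospholipase C at the edge of the postsynaptic density, where Homer proteins bind it. It was at 239, 369 and 319 CPM in WT, 416, 475 and 374 in PS19, 366, 348 and 501 in Tia1+/-, and 307, 327 and 296 CPM in P301S Tia1+/- mice. PS19 was above WT and above P301S Tia1+/- mice without overlap, with log2 differences of 0.45 (SE 0.173, adjusted p = 0.247 by edgeR) and -0.44 (adjusted p = 0.206). The highest value was again that of Tia1+/- replicate 3.

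Grm3 (chr5:9485541-9725170), which lowers cyclic AMP in axon terminals and astrocytes, was the most abundant metabotropic gene per length. Its values were 62.4, 193 and 205 CPM in WT, 183, 229 and 224 in PS19, 219, 208 and 158 in Tia1+/-, and 148, 166 and 138 CPM in P301S Tia1+/- mice. P301S Tia1+/- was below PS19 in all libraries, by -0.49 on the log2 scale (SE 0.335, adjusted p = 0.431 by edgeR), and WT replicate 1 was the lowest of all. The 4 astrocyte markers were Gfap, Aqp4, Aldh1l1 and Gja1. Their summed levels were 436 to 891 CPM in WT, highest in replicate 1, and 506 to 1015 in PS19. They were 376 to 590 in Tia1+/- and 577 to 718 CPM in P301S Tia1+/- mice. Of the WT libraries, replicate 1 had the highest Gja1, at 228 CPM, but the lowest Aldh1l1, at 69.4 CPM. The highest PS19 sum, in replicate 1, held 569 CPM of Gfap. The part of these markers in the Grm3 values was not tested.

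Grm8 (chr6:27275119-28135178), a presynaptic receptor that reduces release, was at 52.6, 41.5 and 30.0 CPM in WT, 35.2, 43.8 and 44.1 in PS19, 32.6, 32.5 and 24.2 in Tia1+/-, and 51.4, 45.6 and 47.6 CPM in P301S Tia1+/- mice. It separated P301S Tia1+/- from Tia1+/- mice, by 0.70 on the log2 scale (SE 0.188, adjusted p = 0.185 by edgeR; 0.45 with the bulb level as a covariate), and from PS19 by 0.23 (adjusted p = 0.502), in both cases without overlap. Grm4, another presynaptic receptor of the same group, falls outside the rule for named genes and was chosen after its values were seen, because it had the largest difference of all 34 genes between P301S Tia1+/- and PS19 mice. It was at 56.7, 21.8 and 17.1 CPM in WT, 18.1, 14.2 and 14.0 in PS19, 16.2, 18.4 and 39.2 in Tia1+/-, and 44.8, 39.6 and 43.5 CPM in P301S Tia1+/- mice. The log2 difference from PS19 was 1.47 (SE 0.431, adjusted p = 0.134 by edgeR). Its highest values lay in the libraries with the highest bulb sums, and Tia1+/- replicate 3, with the striatal sum, came next. Grm2 and Grm7 had group means of 31.2 to 41.7 and 82.2 to 102 CPM.

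Among the scaffolds, Dlg1 (chr16:31663443-31875129) showed the smallest p of the 34 genes between PS19 and WT and between Tia1+/- and WT mice. It encodes SAP97, a guanylate kinase scaffold that accompanies AMPA receptors on their way to the synapse. Its levels were 467, 446 and 392 CPM in WT, 355, 334 and 354 in PS19, 366, 348 and 339 in Tia1+/-, and 298, 289 and 277 CPM in P301S Tia1+/- mice. All 9 libraries with a mutation lay below all 3 WT libraries, and all P301S Tia1+/- libraries below both single-mutant groups. The log2 difference from WT was -0.32 in PS19 (SE 0.0811, adjusted p = 0.159 by edgeR) and -0.31 in Tia1+/- mice (adjusted p = 0.088). From PS19 and from Tia1+/- to P301S Tia1+/- mice it was -0.27 (adjusted p = 0.139) and -0.285 (adjusted p = 0.192), and the interaction was 0.04 (SE 0.115, adjusted p = 0.866).

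With the bulb level as a covariate, the differences of Dlg1 were -0.26 for PS19 against WT, -0.26 for Tia1+/- against WT and -0.37 for P301S Tia1+/- against Tia1+/- mice, with adjusted p-values of 0.19, 0.115 and 0.10 by edgeR. Without WT replicate 1 the first 2 were -0.26 and -0.24. DESeq2 called Dlg1 in all 4 comparisons of groups.

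The other guanylate kinase scaffolds had smaller differences, of at most 0.21 on the log2 scale in the 4 comparisons of groups. Dlg3 (chrX:100767722-100818410), which encodes SAP102 and is the most abundant of the 4 per length, was at 196, 190 and 201 CPM in WT, 206, 206 and 205 in PS19, 214, 196 and 216 in Tia1+/-, and 213, 228 and 211 CPM in P301S Tia1+/- mice. Its log2 differences lay between 0.06 and 0.09 in the 4 comparisons of groups, with a standard error of about 0.068. Dlg3 is X-linked, and Xist separated the Tia1+/- groups from the Tia1+/+ groups but not the groups within either Tia1 genotype. Dlg2, which encodes PSD-93, had means of 422 to 472 CPM and its lowest 3 values in P301S Tia1+/- mice, with a log2 difference of -0.16 from PS19 (SE 0.0694, adjusted p = 0.233 by edgeR). Dlg4, which encodes PSD-95, the central scaffold of the postsynaptic density, had means of 226 ± 27.5 CPM in WT, 240 ± 24.4 in PS19, 260 ± 39.7 in Tia1+/- and 239 ± 12.5 in P301S Tia1+/- mice (SD, n = 3), and all groups overlapped.

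The Shank genes encode the deeper layer of the density that joins the receptor complexes to actin, and all 3 had their lowest or next to lowest mean in P301S Tia1+/- mice. Shank3 (chr15:89499623-89560261) was at 43.9, 86.5 and 108 CPM in WT, 87.3, 98.5 and 89.7 in PS19, 107, 79.5 and 85.4 in Tia1+/-, and 57.0, 62.0 and 63.4 CPM in P301S Tia1+/- mice. The P301S Tia1+/- libraries were below all Tia1+/- and PS19 libraries, with log2 differences of -0.57 (SE 0.248, adjusted p = 0.30 by edgeR) and -0.60 (adjusted p = 0.227). Again WT replicate 1 had the lowest value. Shank1 and Shank2 did not overlap between P301S Tia1+/- and PS19 mice either, at -0.32 and -0.30 on the log2 scale (adjusted p = 0.324 and 0.292 by edgeR).

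Homer2 and Homer3 had higher values in P301S Tia1+/- than in PS19 mice, whereas Homer1, described below with the wider list, had lower ones. Homer proteins form tetramers that connect metabotropic receptors to Shank proteins and to calcium stores. Homer3 (chr8:70282827-70294361), best known from cerebellar Purkinje cells, was the least abundant gene but 1 per length, with 29 to 110 counts per library. It was at 4.56, 3.04 and 2.21 CPM in WT, 2.29, 2.56 and 2.47 in PS19, 2.76, 2.30 and 2.71 in Tia1+/-, and 5.03, 6.60 and 5.71 CPM in P301S Tia1+/- mice. The log2 difference from PS19 was 1.24 (SE 0.249, adjusted p = 0.0691 by edgeR), that from Tia1+/- 1.16 (adjusted p = 0.175) and the interaction 1.58 (SE 0.355, adjusted p = 0.0684). With the bulb level as a covariate these were 0.49, 0.53 and 0.42.

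Homer2 (chr7:81600481-81707527) was at 281, 124 and 104 CPM in WT, 128, 138 and 102 in PS19, 96.2, 91.2 and 121 in Tia1+/-, and 187, 181 and 189 CPM in P301S Tia1+/- mice. The P301S Tia1+/- libraries were above all PS19 and Tia1+/- libraries, by 0.59 (SE 0.301, adjusted p = 0.307 by edgeR) and 0.85 (adjusted p = 0.246) on the log2 scale, and WT replicate 1 exceeded them all. Cerebellar markers, of which 5 of 5 were found, were low throughout, with a summed level of 22.2 to 49.2 CPM in WT, highest in replicate 1, 19.2 to 30.4 in PS19, 18.1 to 21.7 in Tia1+/- and 33.9 to 40.1 CPM in P301S Tia1+/- mice. Of the 5, Cbln1 alone was higher in P301S Tia1+/- than in PS19 mice, at 23.3, 21.8 and 23.9 against 18.2, 5.52 and 2.23 CPM, and it was at 38.2 CPM in WT replicate 1. The part of these genes in the Homer and Grin2c values was not tested.

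The CaMKII subunits split. Camk2a, on chromosome 18, was at 400, 597 and 1114 CPM in WT, 868, 1157 and 824 in PS19, 1123, 863 and 669 in Tia1+/-, and 537, 646 and 561 CPM in P301S Tia1+/- mice. The P301S Tia1+/- libraries were below PS19 and Tia1+/- libraries, with log2 differences of -0.71 (SE 0.318, adjusted p = 0.254 by edgeR) and -0.61 (adjusted p = 0.378), while WT alone spanned 400 to 1114 CPM. Camk2b (chr11:5969644-6066362), whose subunit binds actin, was at 740, 556 and 548 CPM in WT, 507, 564 and 539 in PS19, 629, 573 and 767 in Tia1+/-, and 794, 736 and 770 CPM in P301S Tia1+/- mice. It was higher in P301S Tia1+/- than in PS19 mice without overlap, by 0.51 (SE 0.135, adjusted p = 0.11 by edgeR). That difference was -0.01 with the bulb level as a covariate.

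Because a ratio of 2 genes within a library needs no scaling between libraries, subunit ratios per length were also taken, a choice made after the data were seen. Camk2a over Camk2b was 0.661, 1.31 and 2.49 in WT, 2.09, 2.51 and 1.87 in PS19, 2.18, 1.84 and 1.06 in Tia1+/-, and 0.826, 1.07 and 0.891 in P301S Tia1+/- mice. P301S Tia1+/- mice were below PS19 without overlap (exact 2-sided permutation p = 0.1, the smallest that 3 against 3 libraries allow). Gria1 over Gria2 was 1.24, 1.29 and 1.36 in P301S Tia1+/- and 0.847, 1.04 and 0.861 in PS19 mice (exact permutation p = 0.1), with 1.59, 0.748 and 0.786 in WT and 0.955, 0.848 and 1.36 in Tia1+/- mice. Grin2a over Grin2b had means of 1.05 ± 0.367 in WT, 1.01 ± 0.133 in PS19, 1.03 ± 0.194 in Tia1+/- and 0.874 ± 0.0964 in P301S Tia1+/- mice (SD, n = 3), with overlap in all 4 comparisons. Dlg4 over Dlg1 was 0.424 ± 0.081 in WT, 0.56 ± 0.0756 in PS19, 0.60 ± 0.0669 in Tia1+/- and 0.674 ± 0.0604 in P301S Tia1+/- mice, and Tia1+/- was above WT without overlap (exact permutation p = 0.1). These 4 ratios were each compared 4 times, and the design does not allow a p under 0.1 for any of them before adjustment.

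Nlgn1 (chr3:25426215-26332460) encodes neuroligin-1, the adhesion protein of excitatory synapses that binds presynaptic neurexins and recruits NMDA receptors. It was at 141, 209 and 197 CPM in WT, 230, 243 and 228 in PS19, 201, 198 and 194 in Tia1+/-, and 164, 162 and 150 CPM in P301S Tia1+/- mice. PS19 libraries were above all other libraries, with a log2 difference of 0.36 from WT (SE 0.123, adjusted p = 0.213 by edgeR), or 0.21 without WT replicate 1. P301S Tia1+/- libraries were below all PS19 and Tia1+/- libraries, by -0.56 (SE 0.123, adjusted p = 0.087 by edgeR) and -0.32 (adjusted p = 0.264). The interaction was -0.68 (SE 0.174, adjusted p = 0.0781). With the bulb level as a covariate the differences were 0.15 between PS19 and WT (adjusted p = 0.568), -0.22 between P301S Tia1+/- and PS19 (adjusted p = 0.502) and -0.185 for the interaction (adjusted p = 0.723).

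**Figure D5:**
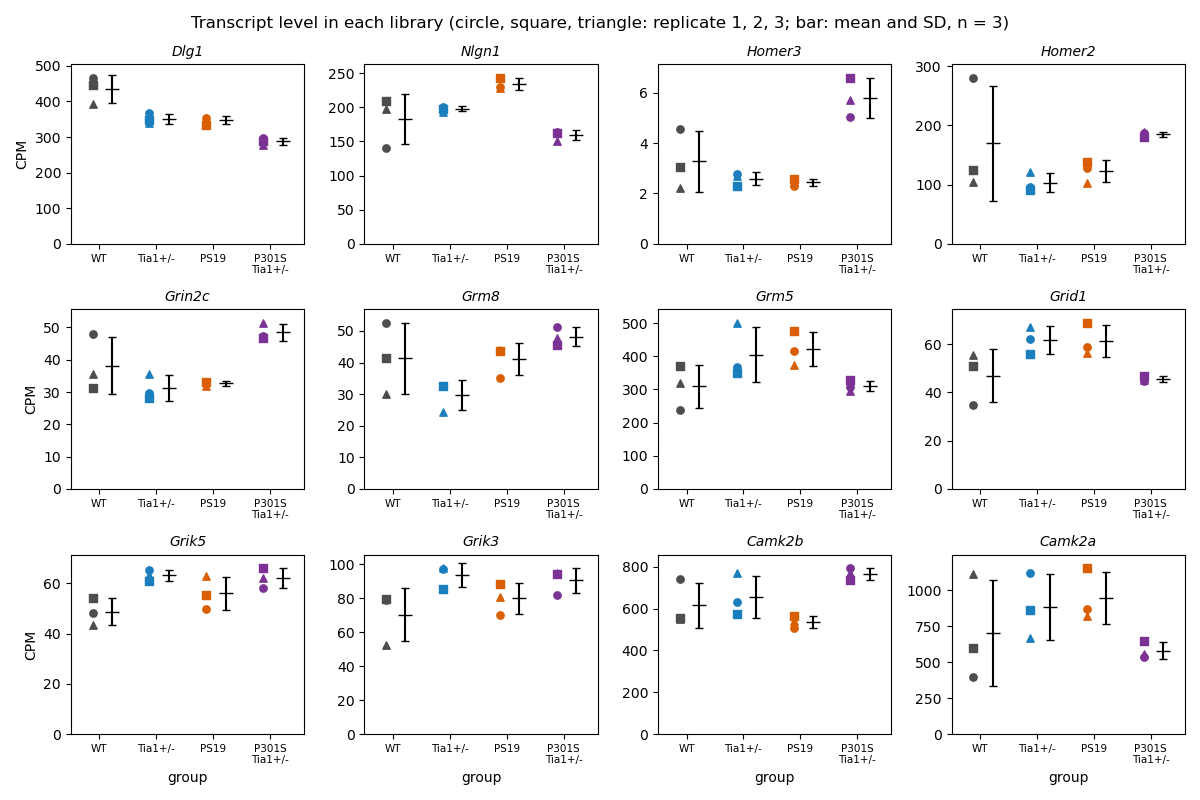
Each panel plots CPM (y axis, linear from 0) in the 3 libraries of each group (x axis; symbols mark replicates 1 to 3) for 12 of the genes, with the mean and SD of the group (n = 3) beside them. Dlg1 steps down from 435 CPM in WT over 351 and 348 CPM in the single mutants to 288 CPM in P301S Tia1+/- mice, whereas in WT the circle, replicate 1, lies apart for Nlgn1, Homer2 and Grin2c.

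The wider glutamatergic synapse was read from a list of 55 further genes, of which 54 were tested: transporters of glutamate, auxiliary subunits and anchors of AMPA and kainate receptors, remaining receptor subunits, other scaffold and signalling proteins, and adhesion proteins. No gene of this list was called in any comparison by edgeR. At an unadjusted p under 0.05, 4 were higher and 2 lower between PS19 and WT, where 6.56% of all genes were higher and 9.73% lower. The counts were 4 and 10 between P301S Tia1+/- and PS19 (11.7% and 7.62% of all genes), 7 and 2 between Tia1+/- and WT (8.63% and 10.5%), 4 and 6 between P301S Tia1+/- and Tia1+/- (8.92% and 6.66%), and 4 and 7 for the interaction (13.6% and 9.28%). The median log2 differences of the list were 0.12, -0.13, 0.07, -0.14 and, for the interaction, -0.275, beside medians over all genes of -0.00664, 0.00967, 0.00573, 0.00643 and 0.00489.

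Homer1, which is not among the 34 genes and encodes the most abundant Homer protein of cortex, had the smallest adjusted p of this list. It was at 611, 743 and 612 CPM in WT, 346, 339 and 537 in PS19, 396, 350 and 274 in Tia1+/-, and 271, 276 and 240 CPM in P301S Tia1+/- mice. All 9 libraries with a mutation were below WT, as for Dlg1. The log2 differences were -0.95 between Tia1+/- and WT (SE 0.188, adjusted p = 0.0509 by edgeR), -0.69 between PS19 and WT (adjusted p = 0.17) and -0.64 between P301S Tia1+/- and PS19 mice (adjusted p = 0.134). Its short immediate-early transcript and its long scaffold transcripts are counted together here.

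Among the auxiliary subunits, Cnih2, which prolongs AMPA receptor opening, was at 40.2, 56.5 and 55.4 CPM in WT and at 68.2 to 76.9 CPM in the 9 other libraries. Its log2 differences from WT were 0.50 in PS19 (SE 0.117, adjusted p = 0.157 by edgeR) and 0.49 in Tia1+/- mice (adjusted p = 0.0751). Shisa7 was at 25.1, 39.2 and 26.4 CPM in WT, 37.8, 45.6 and 43.4 in PS19, 48.9, 41.7 and 47.4 in Tia1+/-, and 26.7, 33.0 and 34.0 CPM in P301S Tia1+/- mice, so that Tia1+/- mice lay above both WT (log2 difference 0.61, adjusted p = 0.0955 by edgeR) and P301S Tia1+/- mice. Cacng2, which encodes stargazin, was lower in P301S Tia1+/- than in Tia1+/- mice, by -0.88 (SE 0.251, adjusted p = 0.192). Grip2, an anchor of AMPA receptors, was higher in P301S Tia1+/- than in PS19 mice, at 37.4, 35.5 and 45.7 against 10.9, 11.9 and 15.4 CPM, a log2 difference of 1.63 (SE 0.384, adjusted p = 0.094 by edgeR), and WT replicate 1 again matched the former, at 45.9 CPM. Sipa1l1, a spine regulator, differed by 0.43 between the same groups (adjusted p = 0.135). Lrrtm3, an adhesion partner of neurexins, was lower in P301S Tia1+/- than in Tia1+/- mice, by -0.56 (SE 0.13, adjusted p = 0.178 by edgeR).

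The remaining marker lists were read for other cells that the tissue could hold. Microglial markers, 4 of 4 found, summed to 143 to 167 CPM in WT, 188 to 241 in PS19, 154 to 225 in Tia1+/- and 185 to 192 CPM in P301S Tia1+/- mice. Oligodendrocyte markers, 5 of 5 found, summed to 1634 to 2440 CPM in WT, 2101 to 3584 in PS19, 2861 to 3784 in Tia1+/- and 2199 to 2436 CPM in P301S Tia1+/- mice. The summed hippocampal markers were highest in Tia1+/- replicate 3, at 172 CPM against 40.3 to 85.4 CPM in the 11 other libraries. Wfs1 alone made 149 CPM of that sum. In the same library Prox1, at 5.09 CPM, and Lct, at 0.258 CPM, lay below the other Tia1+/- libraries, while Fibcd1 and Dsp lay above them. Thalamic markers reached at most 25.2 CPM, endothelial markers 50.3 to 86.6 CPM, choroid plexus markers 1.51 to 45.0 CPM and blood markers 1.45 to 4.34 CPM, with 3 of the 4 blood genes at 0 in every library. How far these differences enter the levels of the synaptic genes was not tested.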

How the data were processed

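Cortex RNA was sequenced as paired ends in 12 stranded total RNA libraries, 3 per group. The authors deposited whole-number read counts per gene, not normalized, which per the labels were made with TopHat2 2.0.6 and featureCounts on mm10. The annotation and the strand setting are not given in the sources used here, and overlapping genes may share reads.

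The counts were fitted with edgeR 4.0.16 in R 4.3.3 (TMM scaling, filterByExpr, quasi-likelihood test, 1 mean per group, all 12 libraries), and p-values were adjusted by Benjamini-Hochberg over the 15440 of 24062 genes that passed the filter. DESeq2 1.42.0 was an alternative. In counts simulated from these libraries for PS19 against WT (15274 genes), the fit called 53 of 100 genes changed by 1 on the log2 scale and 76 of 96 changed by 1.5. These counts were drawn independently for each gene, with the change in both transgenic groups. They held none of the shared shifts of regional markers between libraries, and smaller changes were not simulated. CPM are TMM-scaled. Exon lengths and coordinates are from GENCODE M21 (GRCm38), in which 23692 symbols matched, 934 by an older symbol. Totals per library differed 1.6-fold, and a gene with few counts, such as Homer3, has the larger counting error.

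Genes named with each library's value had 1 of the 4 smallest p-values of a comparison, the highest level per length of their class, or are Gria2 and Camk2b, whose splicing the study describes. From the wider list, the 3 smallest p-values per comparison were named. The genes and lists were chosen with earlier results of these data known. Sequences are from RefSeq (GRCm38.p6), and protein sequences were not used here.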

Additional observations from a re-analysis of the deposited data

How the results depend on the processing

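No gene of the 34 was called under DESeq2's size factors, without the filter, with GC and length offsets, or with the replicate number as a block. The labels do not say whether the replicate numbers pair libraries. Of 18 pairs of same-numbered libraries, 7 had deviations that correlated above 0.1 (-0.534 to 0.326). With 3 libraries per group this cannot exclude a pairing. The replicate block gave 0 calls in each comparison, as did the main fit. DESeq2's Wald test called 1, 6, 2, 4 and 7 genes (PS19 vs WT, P301S Tia1+/- vs PS19, Tia1+/- vs WT, P301S Tia1+/- vs Tia1+/- and interaction). The bulb covariate gave 2, 1, 4, 1 and 2 calls (3.42%, 4.78%, 7.29%, 5.9% and 6.08% of all genes). Fitting only the groups compared gave 17 calls between P301S Tia1+/- and PS19 (6 higher, 11 lower; 20.1% of all genes) and 4 between P301S Tia1+/- and Tia1+/- (2.22%), and 0 in both comparisons with WT.

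Leaving out 1 library gave 0 to 0, 0 to 13, 0 to 1, 0 to 10 and 0 to 7 calls in that order, the highest without WT replicate 1 (13 and 10) and WT replicate 3 (1, Dlg1, and 7). Without both WT replicate 1 and Tia1+/- replicate 3, chosen after the data were seen, 18 genes were called between P301S Tia1+/- and PS19 (22.9% of all genes), 21 between P301S Tia1+/- and Tia1+/- (23.4%) and 13 for the interaction (13.5%). The cause of these gains was not tested.

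Of 536 alternative values of 27 differences of named genes, 474 kept direction and side of the threshold, 53 passed it and 9 turned sign. With the bulb covariate Camk2b turned to 0.15 (PS19 vs WT), -0.01 (P301S Tia1+/- vs PS19) and -0.21 (P301S Tia1+/- vs Tia1+/-), and Gria2 to -0.056 (Tia1+/- vs WT) and 0.079 (P301S Tia1+/- vs Tia1+/-). Between Tia1+/- and WT, leaving out 1 library gave Camk2b differences of -0.026 (without Tia1+/- replicate 3) to 0.265 and Gria2 differences of -0.102 (without WT replicate 1; -0.01 without Tia1+/- replicate 3) to 0.136, and Gria2 was -0.16 without both. The cause was not tested. The median of the 34 genes between P301S Tia1+/- and PS19 spanned -0.21 to 0.03 over the alternatives.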
